A study of Mus musculus with 6 samples.

Results

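The naive-state group of the core pluripotency network was followed here through 8 genes, Zfp42, Esrrb, Nr5a2, Nr0b1, Tfcp2l1, Tbx3, Gbx2 and Tcl1. All array probes carrying these gene names were taken, which gave 15 of 41174 probes for 8 of 27670 gene or transcript names. The file names 11 of them by the current symbol, and 4 stand under Tcfcp2l1, an older symbol of Tfcp2l1. The label of transcription factors fits the genes except Tcl1, whose product binds the kinase Akt and increases its activity. Gene expression had been measured on 6 Agilent arrays, 3 of mouse embryonic stem (mES) cells and 3 of epiblast stem cells (EpiSC). The mES arrays held the lines ESF122, ESF175/1 and ESF58/2 (the last is called ESF58/1 in another label), and the EpiSC arrays held the line EpiSC-5 and the line EpiSC-7 at passage 20 and at passage 25. The EpiSC group thus comes from 2 lines only. Every culture grew on irradiated mouse embryonic fibroblasts (MEFs), in DMEM with serum replacement (KSR), beta-mercaptoethanol (BME), non-essential amino acids (NEAA) and L-glutamine. LIF was added to mES cultures and FGF2 to EpiSC cultures.

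ES cells come from the blastocyst before implantation and stand for the naive state of pluripotency. EpiSC come from the epiblast after implantation and stand for a later, primed state. In ES cells, LIF acts through the kinase JAK and the factor STAT3, and a set of transcription factors downstream of LIF and of Wnt signalling supports self-renewal beside Oct4, Sox2 and Nanog. The genes followed here belong to that set or report on it. They include the nuclear receptors Esrrb, Nr5a2 and Nr0b1, the LIF-responsive factors Tfcp2l1, Tbx3 and Gbx2, the zinc finger gene Zfp42 and the Akt cofactor gene Tcl1.

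All values are scaled signals, in linear intensity units, after each array was brought to the same 75th percentile. The lowest scaled signal that the scanner software called well above background was between 11.3 and 21.3 on the 6 arrays, and 66.8% to 76.0% of spots were above background. The 3 arrays of each group limit the precision. Pou5f1, Sox2 and 5 other markers of pluripotent cells were above background on all 6 arrays, with a summed signal of 35139 to 61017. All 12 markers of fibroblast feeder cells were also above background on all 6 arrays. Their summed signal was 11993 on ESF175/1 and 7776 on EpiSC-7 at passage 25, and 52787 to 86657 on the other 4 arrays. ESF122 and ESF58/2 shared a slide, as did both EpiSC-7 arrays, and each slide held 1 group, so that slide, scan and added factor cannot be told apart from the cell type. The p-values measure the spread between these cultures. In such bulk RNA, fewer cells expressing a gene and less RNA per cell cannot be told apart either.

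The comparison of EpiSC with mES cells asked how the expression of these genes differed between the primed and the naive state. Of the 15 probes, 13 passed the filter on dim probes, which required signal above background on all 3 arrays of at least 1 group. By limma's test with Benjamini-Hochberg adjustment over 29552 probes, 12 of the 13 were lower in EpiSC at an adjusted p under 0.05 and 0 were higher (0 also at an unadjusted p under 0.05). Of all probes tested, 26.0% passed this threshold, 14.3% lower and 11.7% higher. The members were chosen with earlier results of these data known, so their counts beside these shares are a description only. For the same 12 probes every EpiSC value lay below every mES value, as it did for 28.1% of all probes. Only 1 member gene, Gbx2, had no probe past the threshold. Since 4 of the 13 probes entered through mES cells only, the count was also taken over the 9 probes above background on all 6 arrays, of which 8 fell. Among all 25585 probes that meet this stricter filter, 16.1% were lower. The median log2 fold change (EpiSC minus mES) over the 13 probes was -4.27, or -3.98 with 2 probes set at their bounds, beside -0.11 for all probes tested. With probes above background on no EpiSC array counted at their bounds, 10 of the 13 probes were at least 4-fold lower, as were 3.43% of all probes. By the same count 6 were at least 16-fold lower, as were 0.822% of all probes.

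**Figure D1:**
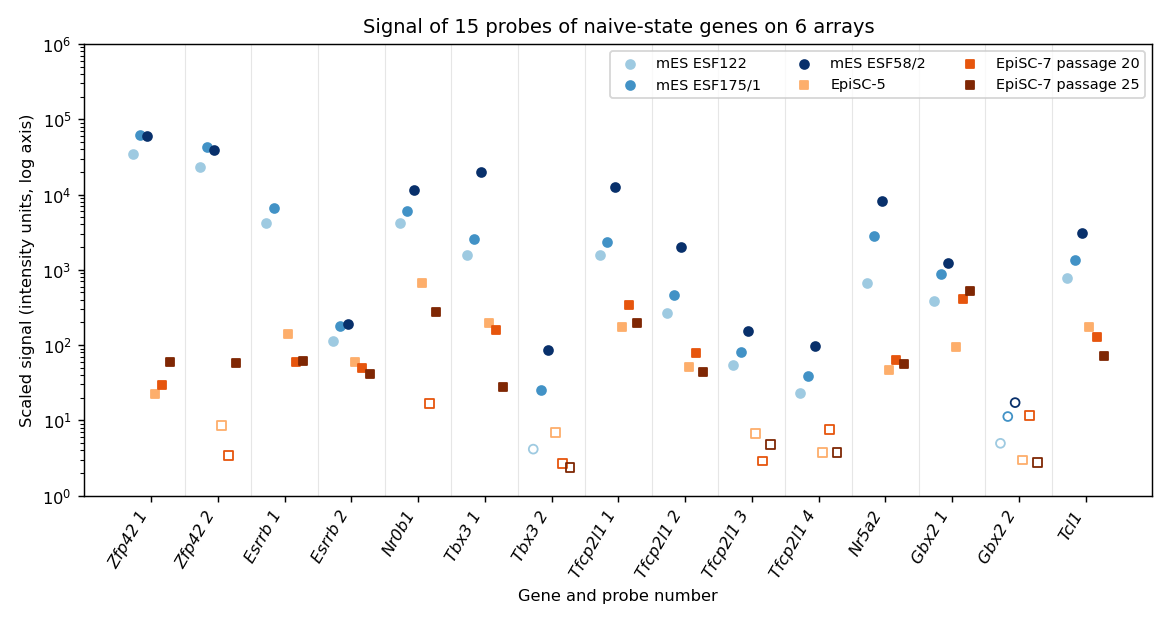
Scaled signal (log axis) of the 15 probes on each of the 6 arrays; circles are mES lines, squares are EpiSC lines and passages, and open symbols were not well above background. Every EpiSC value lies below every mES value for 12 of the 13 probes that were tested, and the exception is Gbx2 probe 1.

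Zfp42, the zinc finger gene also called Rex1 and long used as a marker of ES cells, showed the largest decrease of the 8 genes. Its brighter probe gave 34830, 62190 and 59679 on ESF122, ESF175/1 and ESF58/2, and 22.2, 29.4 and 58.8 on EpiSC-5 and on EpiSC-7 at passages 20 and 25. The mES values lay within 1.79-fold of each other, and no EpiSC value came near them. The decrease was 1497-fold (log2 fold change -10.55 ± 0.41, SE, n = 3 per group, limma adjusted p = 6.73e-05). The second probe was lower as well (log2 fold change -11.47 ± 0.96, adjusted p = 0.000886). It was above background on 1 of the 3 EpiSC arrays, at 57.2 on EpiSC-7 at passage 25, where the brighter probe was highest too. Without that array neither remaining EpiSC value of this probe was above background, so its size then has no exact value. Without EpiSC-7 at passage 20 its log2 fold change was -10.58, with 1 of the 2 EpiSC values above background.

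The sequence just before the start of Zfp42 is shown because known motifs of pluripotency factors were found in it. RefSeq promoter windows of 250 bases before the start (GRCm38.p6) were matched for 7 of the 8 genes, 9 windows in all, and Tbx3 had no entry. The 6 motifs ATGCAAAT (octamer), GGGTGTG (Klf), GGTGTGA (T-box), TCAAGGTCA (Esrrb and Nr5a2), ACAATGG (Sox) and TTCNNNGAA (Stat) were searched on both strands, and capitals mark the matches.

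Zfp42, chr8:43307010-43307259, minus strand: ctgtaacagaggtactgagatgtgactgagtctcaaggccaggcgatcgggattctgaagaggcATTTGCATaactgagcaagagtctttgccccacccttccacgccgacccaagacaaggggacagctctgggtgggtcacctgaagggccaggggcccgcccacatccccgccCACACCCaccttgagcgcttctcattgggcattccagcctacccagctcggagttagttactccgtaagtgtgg

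The first capitals are the octamer ATGCAAAT of Oct factors on the reverse strand, which begins 186 bases before the start and which 1.60% of all 32851 windows hold. The second are GGGTGTG, a Klf motif, again reversed, 74 bases before the start, and 6.93% of windows hold it. It shares 6 letters with the T-box motif GGTGTGA, which 3.33% of windows hold and no member window does. The extended half-site TCAAGGTCA bound by Esrrb and Nr5a2 was in 0 of the 9 windows and in 0.387% of all, and the Sox motif ACAATGG was in 0 of 9 and 3.02%. A match describes letters in this window only and is not shown to be a bound site.

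Among the nuclear receptors, Esrrb, an orphan receptor that binds together with the core factors, fell at both of its probes but to a different extent. The brighter probe, placed on the RefSeq transcript, gave 4187 on ESF122 and 6539 on ESF175/1. Its spot on ESF58/2 had been marked as an outlier by the scanner software and was left out, so this fit rests on 2 mES arrays. The EpiSC values were 142, 58.9 and 60.6, highest on EpiSC-5, and the groups were far apart. The decrease was 65.7-fold (log2 fold change -6.04 ± 0.47, n = 2 mES and 3 EpiSC arrays, adjusted p = 0.00127). With the marked spot kept, at a scaled signal of 13812, the log2 fold change was -6.50 ± 0.53 (adjusted p = 0.000774). The second probe, designed on a cDNA clone from retina, gave 112, 178 and 193 in mES cells and 59.1, 50.1 and 40.8 in EpiSC. It was above background throughout and fell 3.17-fold (log2 fold change -1.66 ± 0.27, adjusted p = 0.00738). It lost the call with the 4 arrays from position 4 alone (adjusted p = 0.0552).

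Esrrb has 2 start sites in RefSeq, and the upstream one is shown because it is the other member window with matches.

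Esrrb, chr12:86360867-86361116, plus strand: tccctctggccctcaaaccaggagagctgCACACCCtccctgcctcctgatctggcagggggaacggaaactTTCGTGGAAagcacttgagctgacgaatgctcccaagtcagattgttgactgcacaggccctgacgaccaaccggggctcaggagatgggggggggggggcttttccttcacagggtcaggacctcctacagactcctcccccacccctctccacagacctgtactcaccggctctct

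Here the capitals are the reversed Klf motif, 221 bases before the start, and the Stat motif TTCNNNGAA, 178 bases before it. The Stat motif is in 7.02% of all windows. The window at the downstream start of Esrrb held none of the 6 motifs, and neither did those of Gbx2, Nr0b1, Nr5a2, Tcl1 and Tfcp2l1.

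Nr5a2, also called Lrh-1, is a nuclear receptor that binds regulatory sequences of the Oct4 gene and maintains its expression in the epiblast. Its only probe gave 666 on ESF122, 2797 on ESF175/1 and 8315 on ESF58/2, a 12.5-fold spread among mES lines. In EpiSC the values were 46.3, 64.1 and 55.8, within 1.39-fold of each other and all above background. These low EpiSC signals were thus close together and the mES signals were not, and the groups did not overlap. The decrease was 45.4-fold (log2 fold change -5.50 ± 0.84, adjusted p = 0.00604). It was -6.46 without ESF122 and -4.64 without ESF58/2, and it passed with any 1 array left out.

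Nr0b1, or Dax1, an X-linked member of the family that lacks the usual DNA-binding domain and acts mainly as a corepressor, had the opposite pattern of spread. It gave 4236, 6039 and 11474 in ESF122, ESF175/1 and ESF58/2, a 2.71-fold range. In EpiSC it gave 667 on EpiSC-5, 16.9 on EpiSC-7 at passage 20 and 274 on EpiSC-7 at passage 25. The value at passage 20 was not well above background, and both other EpiSC values were. All 3 nevertheless lay under the lowest mES value. The log2 fold change was -5.51 ± 1.29 (adjusted p = 0.0243), the largest standard error among the tested probes of these genes. Leaving out EpiSC-7 at passage 20 gave -3.96, and leaving out EpiSC-5 gave -6.61, both past the threshold. The call was lost without ESF122 (adjusted p = 0.0517), ESF175/1 (adjusted p = 0.0606), ESF58/2 (adjusted p = 0.0596) or EpiSC-7 at passage 25 (adjusted p = 0.0587).

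Of the LIF-responsive factors, Tfcp2l1, a CP2-family factor that lies downstream of STAT3 in ES cells, was measured by 4 probes. The brightest gave 1564, 2352 and 12511 in ESF122, ESF175/1 and ESF58/2 and 175, 338 and 199 in EpiSC-5 and EpiSC-7 at passages 20 and 25. ESF58/2 stood well above the other mES lines, and EpiSC-7 at passage 20 was the highest EpiSC value. The decrease was 15.8-fold (log2 fold change -3.98 ± 0.76, adjusted p = 0.0127). Without ESF58/2 it was -3.08 and without ESF122 -4.58, and the call was lost without EpiSC-7 at passage 25 (adjusted p = 0.0512). The second probe fell 11.3-fold (-3.50 ± 0.72, adjusted p = 0.0161), to -2.65 without ESF58/2 and -4.11 without ESF122, and it did not pass without EpiSC-5 (adjusted p = 0.0542) or EpiSC-7 at passage 25 (adjusted p = 0.0618). Probes 3 and 4 had signal above background in every mES line but in no EpiSC array, so that only bounds can be given. By these bounds they were 7.29-fold and 3.72-fold lower in EpiSC. The limma adjusted p (0.00201 and 0.00903) come from fits that used EpiSC values not above background, not from the bounds. A bound sets the mES mean against the lowest signals that were well above background on the EpiSC arrays. It is not a strict limit: on EpiSC-7 at passage 20 that lowest signal was 12.6, yet Nr0b1 at 16.9 was not above background. All 4 probes were highest on ESF58/2 and lowest on ESF122 among the mES lines.

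Tbx3, a T-box factor that can sustain ES cells when LIF signalling is low, was measured by a bright and a dim probe. On the bright one ESF122 gave 1577, ESF175/1 gave 2547 and ESF58/2 gave 19752. In EpiSC-5 the signal was 195, and in EpiSC-7 it was 159 at passage 20 and 27.7 at passage 25. Tbx3 varied in both groups, over 12.5-fold in mES cells and 7.03-fold in EpiSC, yet the groups did not overlap. The log2 fold change was -5.50 ± 1.12 (45.2-fold lower, adjusted p = 0.0155). It was -6.22 without ESF122, -4.40 without ESF58/2 and -4.61 without EpiSC-7 at passage 25, and passed in each of these fits. The dim probe was not tested. It was above background on ESF175/1 (25.4) and ESF58/2 (86.4) only, and on none of the EpiSC arrays.

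Gbx2, a homeobox gene that STAT3 induces in ES cells and that later patterns the midbrain-hindbrain boundary, was the gene that did not separate the groups. Its probe gave 384, 889 and 1231 in the mES lines ESF122, ESF175/1 and ESF58/2. In EpiSC-5 it gave 94.4, but in EpiSC-7 413 at passage 20 and 516 at passage 25, both above ESF122. Thus EpiSC-7 overlapped the mES range and EpiSC-5 lay below it, 4.38-fold and 5.47-fold under the 2 EpiSC-7 arrays. The log2 fold change was -1.46 ± 0.73 (95% confidence interval -3.20 to 0.27, adjusted p = 0.177), and -0.70 without EpiSC-5 (adjusted p = 0.384). The interval includes no change and a decrease of up to 9.18-fold. Gbx2's second probe was not above background on any array and was not tested.

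Tcl1 encodes the Akt cofactor and is active in the early embryo. It gave 772, 1362 and 3131 in ESF122, ESF175/1 and ESF58/2, and 174, 128 and 71.2 in EpiSC-5 and EpiSC-7 at passages 20 and 25. ESF58/2 was again the highest mES line, and both EpiSC lines were lower than any mES line. The decrease was 12.8-fold (log2 fold change -3.67 ± 0.56, adjusted p = 0.00614), and it passed with any 1 array left out, between -4.15 and -3.14.

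**Figure D2:**
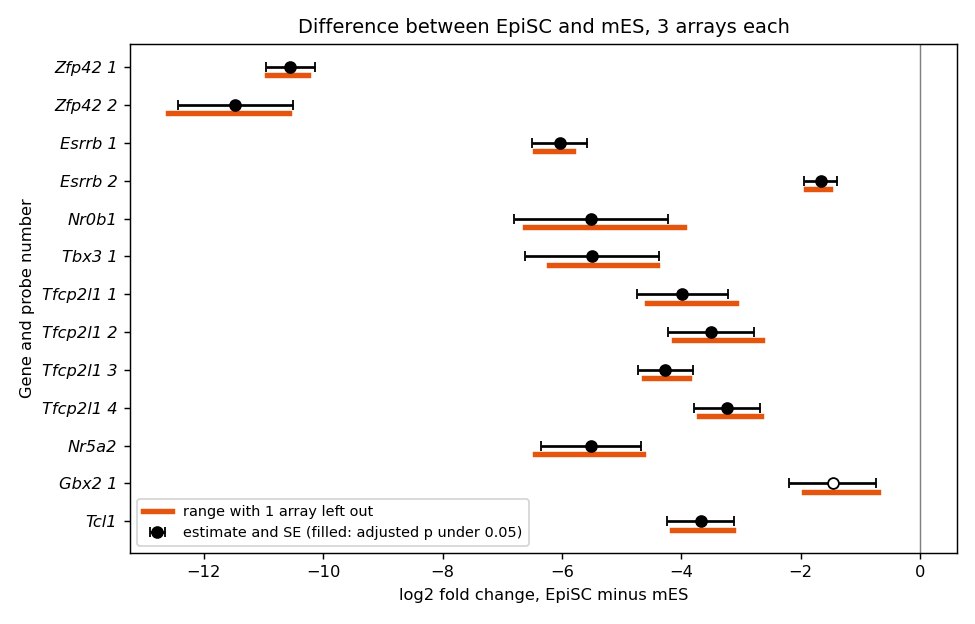
Log2 fold change (EpiSC minus mES) of the 13 tested probes with its standard error (black), and the range of estimates with 1 array left out in turn (orange). All 13 estimates lie below 0; Gbx2 probe 1 (open symbol) is the only one not past the threshold, and Zfp42 lies furthest from 0. For Zfp42 probe 2, Nr0b1 and Tfcp2l1 probes 3 and 4 the estimates include EpiSC values not above background.

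Both arrays that were low in feeder markers were left out together, which left 2 arrays per group. In that fit 3 of 12 member probes from 2 genes passed, both probes of Zfp42 and the third of Tfcp2l1. For Zfp42 probe 2 and Tfcp2l1 probe 3 neither EpiSC array kept was above background, so those calls rest on EpiSC values not above background. Zfp42 probe 1 was at -10.80 (adjusted p = 0.00311), with both EpiSC values above background. Of all 30247 probes 2063 passed there. Among the log2 fold changes of that fit, Tfcp2l1 probe 1 was at -4.19 (adjusted p = 0.082), Nr5a2 at -5.43 (adjusted p = 0.0658), Tbx3 probe 1 at -4.99 (adjusted p = 0.0772), Tcl1 at -3.38 (adjusted p = 0.0592) and Nr0b1 at -6.04 (adjusted p = 0.114). In the same fit Esrrb was represented by its second probe (-1.43, adjusted p = 0.0812). Array position on the slide was the other technical factor that crossed the groups. At position 4 alone, again 2 arrays per group, 10 of 13 probes passed, beside 3955 of all 30559 probes in either direction. Among them Tbx3 probe 1 was at -3.51, Tfcp2l1 probe 1 at -2.98, Tfcp2l1 probe 2 at -2.48, Nr5a2 at -4.65 and Tcl1 at -2.78. Zfp42 probe 2 and Tfcp2l1 probes 3 and 4 passed there too, but neither EpiSC array was above background for them, so no exact difference is given. Nr0b1 did not pass at position 4, at a log2 fold change of -5.57 (adjusted p = 0.109). At position 1, which held ESF58/2 and EpiSC-7 at passage 25, 1 array each without a test, Tbx3 probe 1 differed by -9.48, Nr5a2 by -7.22, Tfcp2l1 probe 1 by -5.98 and Tcl1 by -5.46. Zfp42 probe 1 differed there by -9.99, Nr0b1 by -5.39, Esrrb probe 2 by -2.24 and Gbx2 probe 1 by -1.26.

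Within the mES group the genes shared a pattern across lines that the group comparison did not use. Of the 7 member genes with all 3 mES values at their brightest probe, 6 were highest in ESF58/2, intermediate in ESF175/1 and lowest in ESF122, the exception being Zfp42. Of 26343 probes above background on all 3 mES arrays, 16.6% had this order. A signal at least 2-fold higher in ESF58/2 than in ESF122 was found for the same number, 6 of 7 genes, against 4.46% of all probes, and 2-fold higher than in ESF175/1 for 4 of 7, against 5.09%. ESF175/1 was at least 2-fold above ESF122 for 2 of the 13 probes above background in all mES lines, those of Nr5a2 and Gbx2, against 2.60% of all probes. The fold over ESF122 was 12.5 for both Tbx3 and Nr5a2, 8.0 for Tfcp2l1, 4.05 for Tcl1, 3.21 for Gbx2, 2.71 for Nr0b1 and 1.71 for Zfp42. With median or quantile scaling 7 of 7 genes had the order, against 24.6% and 19.8% of all probes. Each line is 1 array, so these are values without a test. The ESF58/2 array was at slide position 1 and both other mES arrays were at position 4, and the part of position in the pattern was not tested.

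**Figure D3:**
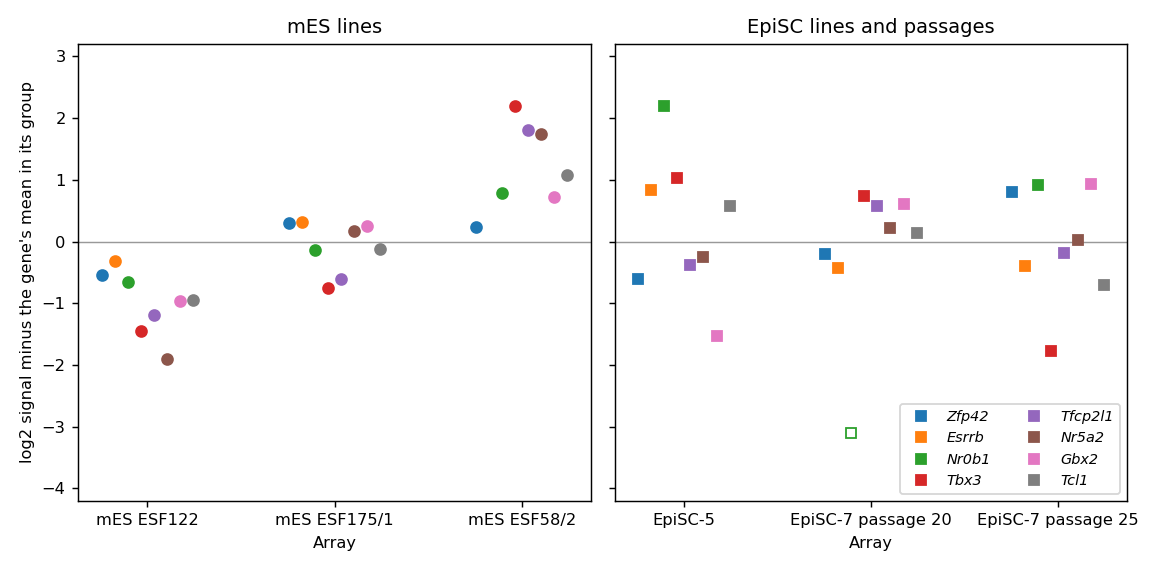
Log2 signal of each gene's brightest probe minus its mean in the group, for the mES lines (left) and the EpiSC lines and passages (right); open symbols were not well above background, and the Esrrb value of ESF58/2 is missing. Values of 7 genes lie above 0 in ESF58/2 and those of all 8 below 0 in ESF122, while the EpiSC arrays show no common order, with Nr0b1, Tbx3 and Gbx2 spread widest.

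Other genes also differed among the mES lines. The list of other naive genes had no common order in ESF122, ESF175/1 and ESF58/2. Klf4 (9797, 15447 and 44235) and Nanog (3547, 5843 and 13238) had the order of the members. Dppa3 (3703, 5119 and 376) and Klf2 (125397, 111520 and 93365) were lowest in ESF58/2. The summed signal of 16 postimplantation epiblast genes was 26075 in ESF58/2, against 88972 in ESF122 and 72180 in ESF175/1, a sum in which bright genes such as Pou3f1 and Dnmt3b weigh most. Of these 16 genes 12 were lowest in ESF58/2, while Foxd3, Etv4 and Etv5 were highest there and Nodal lay between the other lines. The share of all probes lowest in ESF58/2 was not counted, so the 12 are a description only. The ESF58/2 array also had the fewest spots above background (66.8%). Fgf5, an early epiblast growth factor, gave 514 and 104 in ESF122 and ESF175/1 and was not above background in ESF58/2 (20.6). Foxd3 gave 414, 359 and 796 in ESF122, ESF175/1 and ESF58/2. The 6 measured markers of the cleavage-stage embryo had summed signals of 2237, 9974 and 12731. The feeder markers did not follow this order (60883, 11993 and 74432, the last without Col1a2, whose spot was left out), and their part in the pattern was not tested. Among EpiSC arrays no such common order was seen: Nr0b1, Tbx3, Tcl1 and Esrrb probe 1 were highest in EpiSC-5, Gbx2 and Zfp42 in EpiSC-7 at passage 25, and Tfcp2l1 probe 1 and Nr5a2 in EpiSC-7 at passage 20. Within EpiSC-7, Tbx3 was 5.74-fold lower at passage 25 than at passage 20. Between these 2 arrays the summed feeder signal was lower at passage 25 as well (7776, against 52787 at passage 20). Its part in the Tbx3 difference was not tested. No fold is given for Nr0b1, whose value at passage 20 was not above background.

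The genes whose values over the 6 arrays were most like the mean standardized profile of the 8 genes, among 19919 other genes, were Tex13b (Pearson's r = 0.999), D11Wsu47e (0.998), Plekha7 (0.998), D230025D16Rik (0.998) and Slc11a1 (0.997). The 6 arrays fall into 2 groups and share slides and hybridisations, and the correlations are given as a description only. Tex13b gave 49.7, 92.9 and 166 in ESF122, ESF175/1 and ESF58/2 and 6.60 to 6.91 in EpiSC, under the lowest signal called above background there, so that its rank rests in part on EpiSC values that were not measured.

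Other genes of the naive state fell with them. Of 16 measured genes from a list of 18, each by its brightest tested probe, 12 fell and 0 rose (0 also at an unadjusted p under 0.05), and their median difference was -2.90 on the log2 scale. Of all genes tested in this way, 15.0% were lower and 11.3% higher. Dppa5a, an RNA-binding protein gene of pluripotent cells, was 1198-fold lower (log2 fold change -10.23 ± 0.26, adjusted p = 1.28e-05). Tdh, the threonine dehydrogenase on which ES cell metabolism relies, was 265-fold lower (-8.05 ± 0.35, adjusted p = 9.85e-05). Dppa3, a maternal and germ-line gene, was 160-fold lower by its bound and not above background in EpiSC (adjusted p = 0.00278 in the fit without the bound). The 4 that did not pass were Klf2 (-0.40, adjusted p = 0.166), Nanog (-0.12, adjusted p = 0.867), Sall4 (0.34, adjusted p = 0.192) and Spp1 (-2.22, adjusted p = 0.0658). The list was written from general knowledge of these cell types and with earlier results of these data known, so its direction is not independent evidence.

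In the list of LIF and STAT3 pathway genes, set beside the LIF-responsive Tfcp2l1, Tbx3 and Gbx2, 3 of 13 measured genes fell and 2 rose (6 and 2 at an unadjusted p under 0.05). Over all genes tested, 15.0% fell and 11.3% rose. The adaptor gene Gab1 was 13.4-fold lower (-3.74 ± 0.21, adjusted p = 0.000221), the STAT3 feedback inhibitor gene Socs3 2.27-fold lower (adjusted p = 0.0157) and the kinase gene Tyk2 2.00-fold lower (adjusted p = 0.0182). The AP-1 gene Junb (2.09-fold, adjusted p = 0.0175) and the phosphatase gene Ptpn11 (1.62-fold, adjusted p = 0.0267) rose. Lifr (-0.61, adjusted p = 0.0583), Il6st (-0.70, adjusted p = 0.12), Jak1 (-0.07, adjusted p = 0.844) and Stat3 (-0.22, adjusted p = 0.431), which encode the receptor chains, a kinase and the factor itself, did not pass. These 4 were chosen for their roles after their values were seen. Of 16 measured genes around Akt, the partner of Tcl1, 2 fell and 2 rose (5 and 3 at an unadjusted p under 0.05), close to the shares over all genes. Akt1 (2.29-fold, adjusted p = 0.00429) and the catalytic subunit gene Pik3ca (1.67-fold, adjusted p = 0.0362) rose. The catalytic subunit gene Pik3cd (5.50-fold, adjusted p = 0.00876) and the mTOR inhibitor gene Tsc1 (2.87-fold, adjusted p = 0.0168) fell.

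Close relatives of the 8 genes mostly did not pass, and over all genes tested 15.0% fell and 11.3% rose. Of 18 measured relatives, among them Yy1 of Zfp42, Esrra and Esrrg of Esrrb, Nr0b2, Nr5a1, Tfcp2, Ubp1, Tbx2 and the Tcl1b genes, 1 fell and 0 rose (2 and 0 at an unadjusted p under 0.05), with a median of -0.15 on the log2 scale. The 1 was Gbx1, 2.20-fold lower (-1.14 ± 0.24, adjusted p = 0.0174), whereas Gbx2 itself did not pass.

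Markers of the postimplantation epiblast moved the other way in part: of 16 measured genes 5 rose and 0 fell (1, Etv4, was lower at an unadjusted p under 0.05). Over all genes tested, 11.3% rose and 15.0% fell. Fgf5 was 210-fold higher, with signal above background on 2 of the 3 mES arrays (7.72 ± 1.08, adjusted p = 0.00464). Cdh2, which encodes N-cadherin, was 27.0-fold higher (adjusted p = 0.000423), and the transcription factor genes Otx2 (6.40-fold, adjusted p = 0.0111), Sall2 (5.97-fold, adjusted p = 0.00817) and Foxd3 (2.81-fold, adjusted p = 0.0331) rose too. Utf1, a chromatin factor gene, was the 1 of 7 markers of pluripotent cells to fall (log2 fold change -1.81, adjusted p = 0.00137). At an unadjusted p under 0.05 there were 2, the other being Sox2 (-0.95, adjusted p = 0.0661).

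Lists of other cell types that could express some of the genes were set beside them. The shares over all genes tested, for each of these lists, were 15.0% lower and 11.3% higher. Of 12 feeder markers 0 rose and 0 fell (0 and 0 also at an unadjusted p under 0.05). Primitive endoderm markers, set beside Nr5a2 and Tbx3, had summed signals of 1095 to 2679 in mES cells and 15897 to 37969 in EpiSC. In this list 5 of 10 measured genes rose and 0 fell (0 also at an unadjusted p under 0.05), led by Foxa2 (256-fold, adjusted p = 0.00092), Sox17 (17.6-fold, adjusted p = 0.00631) and Gata6 (11.7-fold, adjusted p = 0.0164), with Col4a1 (3.41-fold, adjusted p = 0.0471) and Sox7 (1.99-fold, adjusted p = 0.0466). The others did not pass, with Gata4 (log2 fold change -0.26), Amn (-0.68) and Lama1 (-1.50) lower and Dab2 (0.60) and Pdgfra (0.96) higher. Afp and Ttr did not pass the filter and were not tested. Trophoblast markers, set beside Esrrb, moved in both directions. Of 9 measured genes 3 fell and 2 rose (4 and 3 at an unadjusted p under 0.05). Esx1 (18.1-fold by its bound, adjusted p = 0.000272 in the fit without it), Tfap2c (5.66-fold, adjusted p = 0.00323) and Tead4 (log2 fold change -1.63, adjusted p = 0.0385) fell. Eomes (17.9-fold, adjusted p = 0.00247) and Krt7 (6.58-fold, adjusted p = 0.0215) rose. Hand1, Tpbpa and Gcm1 were not measured above background on all arrays of either group. Of 6 cleavage-stage markers, set beside Tcl1, 5 fell, with Zscan4c, a family of near-identical copies whose probe may not tell them apart, 60.7-fold lower (adjusted p = 0.00129), Usp17la 20.2-fold (adjusted p = 0.00632) and Tcstv1 10.7-fold (adjusted p = 0.025). Tcstv3 (9.65-fold, adjusted p = 0.0229) and Zfp352 (6.79-fold, above background on 1 of 3 EpiSC arrays, adjusted p = 0.038) fell as well. Their part in the values of the 8 genes was not tested.

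**Figure D4:**
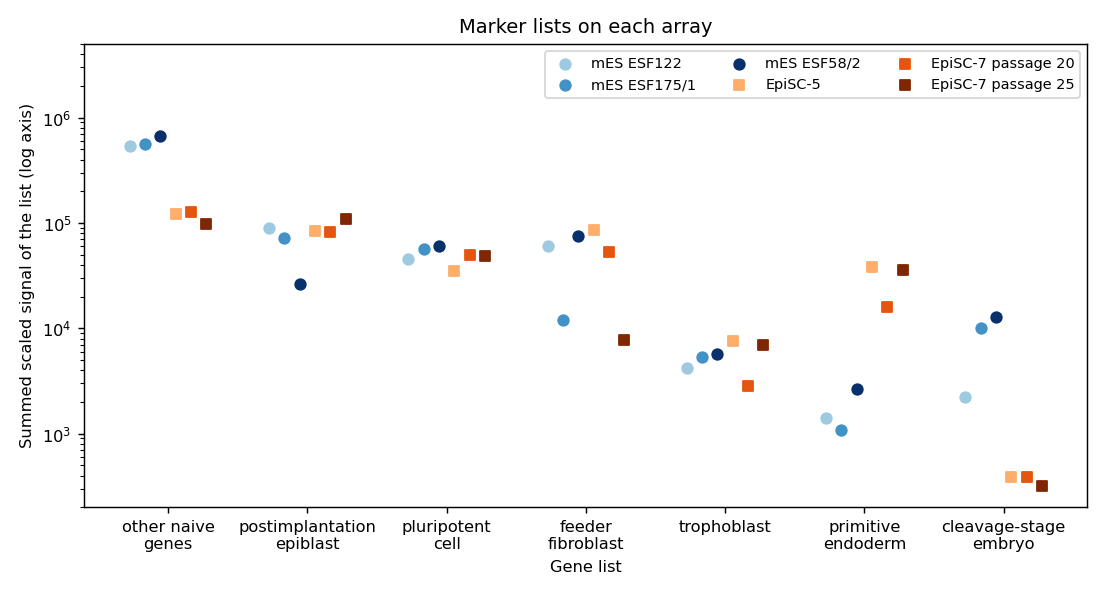
Summed scaled signal (log axis) of 7 gene lists on each array, with circles for mES lines and squares for EpiSC lines and passages. Feeder markers are low on ESF175/1 (11993) and EpiSC-7 at passage 25 (7776), epiblast genes are lowest on ESF58/2 (26075), and the other naive genes and cleavage-stage markers are higher on every mES array than on any EpiSC array.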

How the data were processed

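TRIzol RNA carried 1 dye, Cy3, and each Agilent array had 45018 spots. Linear spot intensity was taken from the deposited scanner output. Per the file headers, Feature Extraction 9.1.3.1 detrended it, and it was not normalized between arrays. The authors' deposited value table, also an intensity, differed from it by at most 0.00716 on the log2 scale, is uncentred and was used as an alternative (0 columns unused; column medians 78.9, 84.9, 68.7, 117, 80.25 and 82.95 in array order). Control spots and 12 to 24 outlier spots per array were left out, 0 were saturated, the log2 signal was centred on each array's 75th percentile, and spots of 1 probe were averaged. Probes were named by accession (22951), by the symbol in the file (6659) or by synonym (3109) with a table of GRCm38.p6, and 8455 kept the file's name. A genome build for the probes is not given here. A probe entered with signal well above background on all arrays of 1 group and at least 2 values per group. limma 3.58.1 in R 4.3.3 compared the groups, two-sided, probe by probe, with no covariate (residual degrees of freedom 4, prior 2.66), and the fit was tested on simulated data. Named genes are all member probes, up to 3 genes per direction of each list past the threshold, the 5 most alike, and members of small counts. The members and lists were chosen with earlier results of these data known.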

Additional observations from a re-analysis of the deposited data

How the results depend on the processing

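The 12 lower member probes, from 7 genes, were also 12, from 7 genes, with normexp background correction, quantile or median scaling, the authors' value table, no filter, outlier spots kept, a mean-variance trend, the EpiSC-7 arrays averaged, the slide as a random block and the position as a block. With 1 probe per gene 7 of 8 passed, and with probes above background on all 6 arrays 8 of 9, from 6 genes. With 1 array left out 9 to 12 probes and 6 to 7 genes passed. Chosen after seeing the data, position 4 alone gave 10 probes from 6 genes, and the arrays higher in feeder markers gave 3 probes from 2 genes. No member probe changed direction under any alternative. Normexp was run with an offset of 50 added to every signal, which by its arithmetic shrinks the folds of dim probes. Its folds were smaller, -9.03 for Zfp42 probe 1, -8.81 for its second, -5.17 for Esrrb probe 1, -4.55 for Nr0b1, -4.68 for Tbx3, -4.48 for Nr5a2, and -2.64, -1.48 and -0.92 for Tfcp2l1 probes 2 to 4. The values of probes 3 and 4 are smaller than their bounds, which were taken without the offset. Over all probes 7680 passed, 12228 with no filter, 16899 with the slide as a random block (fitted correlation -0.69, and calls gained there are no support), 3955 at position 4, 2063 with the arrays higher in feeder markers, and 4052 to 7141 with 1 array left out. The 12 other naive genes that fell were 9 to 14 under the alternatives. No paired analysis was possible because the mES and EpiSC arrays are of different lines and no label pairs them. Probes near background, such as Tfcp2l1 probes 3 and 4, give bounds only.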
